A study of Xenopus laevis with 6 samples.

Results

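The forkhead (fox) family was examined in RNA of Xenopus laevis neuroectoderm explants. Members were the rows whose name is fox, a letter from a to s and a digit, with any paralog number and any .L or .S ending, and 81 of 42549 rows of the expression table met this rule. They belong to 45 genes of 18 subfamilies, since Xenopus laevis is an allotetraploid frog in which many genes are kept as a pair of homeologs, named .L and .S after the long and short chromosomes that carry them. Of the 81 rows, 42 end in .L and 39 in .S.

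The series holds 3 stretched and 3 control samples of wild type explants from embryos at stage 11.5, the middle of gastrulation. Each explant was a sandwich of neuroectoderm pieces held on agarose by needles, which was elongated over 3 h in the stretched group and left unstretched in the control group. All 6 samples thus share the cutting, the joining of pieces and the pinning. The paper states that the explants took in the marginal zone, whose outer cell layers express the mesoderm gene tbxt at this stage. Poly(A) RNA was sequenced, and the values used here are averages over all samples, so every level below stands for stretched and control explants together. No difference between stretched and control explants was measured here, and no spread between replicates can be given.

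Fox proteins are transcription factors that bind DNA through the forkhead domain, a winged helix that gives the family its name. Individual members are known for steering ectoderm, neural plate, organizer, somites and endoderm of the early vertebrate embryo, whereas others act in most cells, in the cell cycle or downstream of insulin signaling. Several, such as the foxa proteins, can bind closed chromatin and are therefore known as pioneer factors.

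For each row the table gives an average log2 CPM, that is, the logarithm of its share of the counted reads scaled to a common library size (CPM), with a small prior count added. The lowest value, -2.08, was shared by 12476 rows and is that of 0 reads. The next values above it rose by a factor of 1.08 and took 6 distinct values, as a single read in one of 6 libraries over a prior count of 2 would give. Totals of reads over the 6 libraries could thus be recovered, and of 9945 rows with 1 to 24 reads, 99.9% came out within 0.05 of a whole number. The averages imply a mean of about 8446369 counted reads per library, so that 1 CPM on the deposited scale stands for 38.7 reads over all libraries. Intervals below are exact (95%) and cover counting error only, and read totals do not allow for transcript length, so they give the share of sequencing that a gene received and not its number of transcripts.

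Markers of the labelled tissue were present. All 17 rows of 9 neural genes averaged above 1 CPM, led by the neural plate factor sox3.S at a log2 CPM of 8.07. For comparison, 68.2% of all rows ending in .L or .S were above 1 CPM. The epidermal and non-neural ectoderm markers were above 1 CPM in all of their 14 rows, from 5.03 for gata3.L to 9.89 for the keratin gene krt12.5.S on the log2 scale. They summed to 5341 CPM with a median log2 CPM of 8.40, against 1381 CPM and 5.84 for the neural rows. Mesoderm markers were above 1 CPM in 5 of 9 rows, with tbxt.S at 6.79 and the paraxial gene tbx6.S at 0.99. Organizer and notochord markers were above it in 7 of 8 rows, with a median log2 CPM of 1.82. In that list not.L stood at 5.23 and not.S at 5.16, followed by shh.S at 2.08, and nog.S was lowest at -0.81. Of 7 endoderm rows 6 were above 1 CPM, with a median log2 CPM of 0.61. In this list a2m.S stood far above the rest at 6.78, followed by gata4.S at 1.26. sox17a.L, an endoderm regulator, stood at 0.47. The explants thus contained RNA of genes known from all of these tissues, and the part of each in the fox levels was not tested. In such bulk samples the number of cells of a type and the RNA per cell cannot be told apart.

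Of the 81 fox rows, 49 (60.5%) averaged above 1 CPM, against 44.4% of all rows of the table and 68.2% of the rows that end in .L or .S. Many rows without such an ending are unnamed loci, so the last share is the closer comparison. The median fox row had a log2 CPM of 1.52, or 133 reads over the 6 libraries. A total of 12 rows had over 1000 reads, 30 rows had 101 to 1000, 16 had 11 to 100, 20 had 1 to 10, and 3 had 0. The family took 0.176% of all recovered reads.

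**Figure D1:**
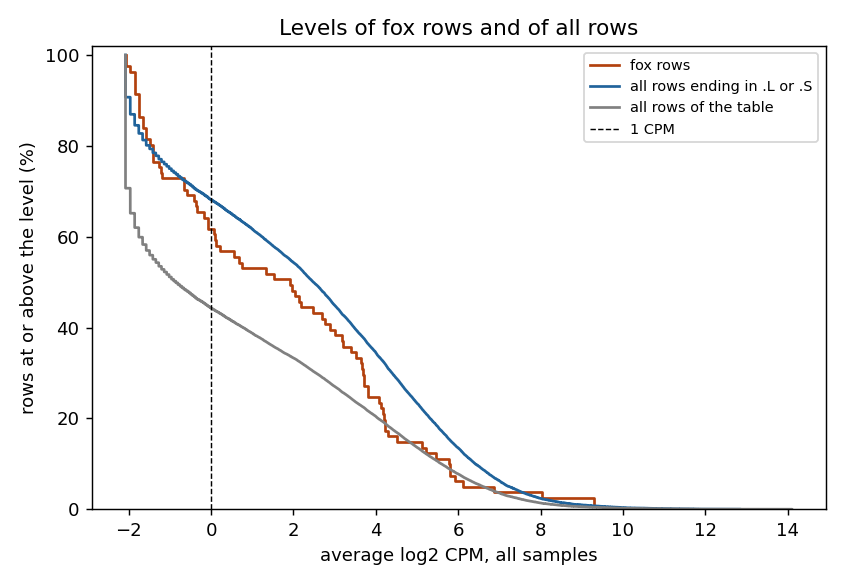
Share of rows (%, vertical axis) at or above each average log2 CPM (horizontal axis) for the 81 fox rows, all rows ending in .L or .S and all rows of the table, with the dashed line at 1 CPM. At 1 CPM the fox curve (60.5%) lies between that of .L and .S rows (68.2%) and that of all rows (44.4%).

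A few members carried most of the reads. The foxi subfamily, with 8 rows, held 53.4% of the summed CPM of the family and 53.9% of its recovered reads (53.6% to 54.2%, exact binomial). The foxk subfamily followed with 9.67% of the reads, foxd with 7.19%, foxa with 6.65% and foxn with 5.54%. At the other end foxe and foxl, with 4 rows each, had 34 and 14 reads in all, and no row of either reached 1 CPM. The top 11 rows, all above a log2 CPM of 5, held 80.2% of fox reads. Such rows made up 13.6% of fox rows, against 23.4% of rows ending in .L or .S and 13.6% of all rows. Whether reads are as concentrated in other sets of genes was not tested.

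**Figure D2:**
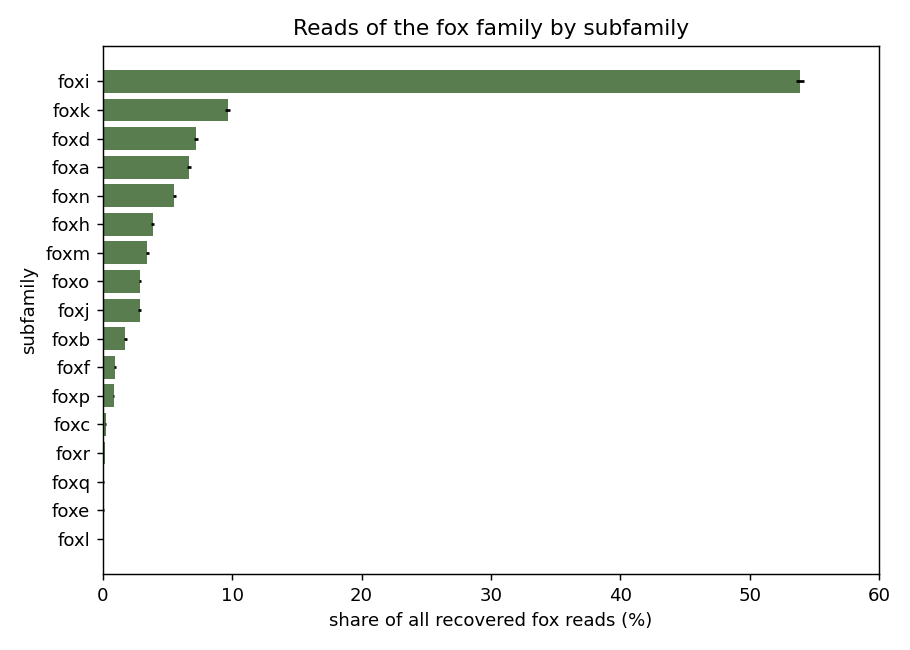
Share of all recovered fox reads (%, horizontal axis) in 17 of the 18 subfamilies, summed over .L and .S rows and all samples. Black bars are exact 95% binomial intervals of counting error, and foxi stands at 53.9%, followed by foxk at 9.67%.

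Among ectodermal members, foxi4.2 stood apart. Its homeolog foxi4.2.S had a log2 CPM of 9.29 (31745 reads), the highest of the family, and foxi4.2.L had 8.04 (13352 reads). Together these rows held 50.3% of all fox reads (50.0% to 50.7%, exact binomial). RefSeq lists foxi1a and xfd2 among the older names of this gene. The gene foxi4.1, which RefSeq places directly beside foxi4.2 on both subgenomes with no protein-coding gene between, reached only 4.13 (878 reads) for foxi4.1.L and 4.18 (909 reads) for foxi4.1.S. Reads that fit both neighbours could have been counted for either or for neither.

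The remaining foxi genes are known in Xenopus for the specification of ectoderm. foxi1, also named Xema, promotes epidermal differentiation in animal cap ectoderm. Its rows stood at a log2 CPM of 2.90 for foxi1.L (365 reads) and 3.65 for foxi1.S (626 reads). foxi2, known as a maternal activator of foxi1 in Xenopus, had 2.18 for foxi2.L and 2.04 for foxi2.S, or 218 and 196 reads. All 8 foxi rows were above 1 CPM, against 68.2% of all rows ending in .L or .S.

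Members known from the neural plate and its border were also present. foxd4l1.1, long called foxd5, maintains immature neural ectoderm in Xenopus, and its homeologs had a log2 CPM of 5.22 for foxd4l1.1.L (1881 reads) and 5.13 for foxd4l1.1.S (1759 reads). The related foxd4l1.2.L, which lies close to foxd4l1.1.L with 1 protein-coding gene between, stood at 4.31 (992 reads). foxd3, a regulator of the neural crest that is also active in early pluripotent cells and the organizer, had 4.52 for foxd3.L and 3.69 for foxd3.S. foxb1, known from the posterior neural plate, had 3.80 for foxb1.L and 4.07 for foxb1.S.

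Counted over a list of ectoderm and neural plate members, foxi genes included, all 16 rows were above 1 CPM. Of all rows ending in .L or .S, 68.2% were. The list leaves out foxb2.S, a relative of foxb1, and the rows foxe3.L and foxe3.S, which were all below 1 CPM. foxd1, also below 1 CPM with 7 reads in foxd1.L and 0 in foxd1.S, was counted under mesoderm members. That all 16 rows passed thus depends on which members were listed. The 16 rows of the list held 62.8% of fox reads. The list was drawn up with earlier results of these data known, and no test was made of it.

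**Figure D3:**
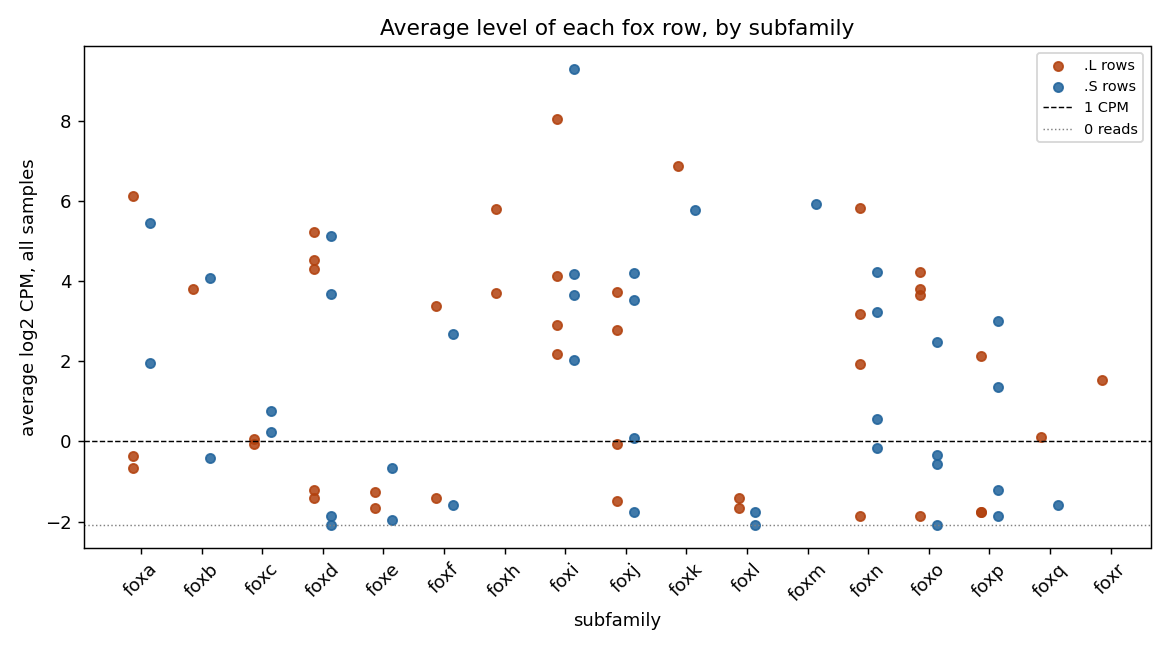
Average log2 CPM over all samples (vertical axis) of 80 of the 81 fox rows by subfamily (horizontal axis), with .L rows and .S rows in separate colours, a dashed line at 1 CPM and a dotted line at 0 reads. The foxi4.2 rows lie at 8.04 and 9.29, whereas all foxe and foxl rows lie below the dashed line.

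In a list of organizer, notochord and endoderm members, the rows of foxa4 and foxh1 were the highest. foxa4, or pintallavis, is expressed in the organizer and the dorsal midline of the frog, and it had a log2 CPM of 6.12 for foxa4.L (3519 reads) and 5.45 for foxa4.S (2209 reads). foxh1.L, the DNA-binding partner of Smad proteins in nodal signaling, stood at 5.80 (2811 reads). foxh1.2.L, whose older name is fast3 and which is not in this list, stood at 3.71 (649 reads). The other foxa genes were low. foxa1.S had 1.96 (185 reads), foxa1.L -0.38 (27 reads) and foxa2.L, a regulator of endoderm, floor plate and node, -0.66 on the log2 scale, or 20 reads (12.2 to 30.9, exact Poisson).

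Members listed under paraxial, lateral and other mesoderm had few reads. Of 18 rows in this list 6 were above 1 CPM, against 68.2% of all rows ending in .L or .S. The list held 1.25% of fox reads. It includes foxd1, foxl2 and foxq1, whereas foxa4, expressed in the organizer, was counted in another list. foxf1, which acts in lateral plate and visceral mesoderm, made up most of the reads of this list. Its log2 CPM was 3.39 for foxf1.L (518 reads) and 2.68 for foxf1.S (314 reads). foxc1 and foxc2, needed in the mouse for somite formation, were each near 1 CPM. In log2 CPM foxc1.L had -0.08 (36 reads), foxc1.S 0.75 (73 reads), foxc2.L 0.07 (41 reads) and foxc2.S 0.22 (47 reads). The average of such a row rests on few reads spread over 6 libraries.

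RefSeq places other fox genes beside foxc1 and foxc2. foxf2 lies between foxc1 and foxq1 on both subgenomes, with 7 reads for foxf2.L and 5 for foxf2.S, and foxq1 had 43 for foxq1.L and 5 for foxq1.S. foxl1, next to foxc2, had 4 reads in its .L row and 0 in its .S row. foxd1.S had 0 reads as well, and foxd1.L 7, beside 10 for foxd2.L and 2 for foxd2.S. A total of 0 reads allows up to 3 reads as a one-sided limit, or 0.0592 CPM when no prior count is added. The exact two-sided interval of such a total ends at 3.69 reads. The rows foxl1.S and foxd1.S were thus not detected at this depth, which does not show that they were absent.

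Members of the ciliated cell program were found at intermediate levels. foxj1, the main regulator of motile cilia, had a log2 CPM of 3.71 for foxj1.L (653 reads) and 917 reads for foxj1.S. Its relative foxj1.2 stood near the limit, with 36 reads for foxj1.2.L and 42 for foxj1.2.S. foxn4, which takes part in the multiciliated cell program of frog skin, had 1.93 for foxn4.L and 0.57 for foxn4.S. In a marker list of multiciliated cells and ionocytes, which contains foxj1 itself, 10 of 12 rows were above 1 CPM. Of all rows ending in .L or .S, 68.2% were. Among the 10 rows were the multiciliated cell regulators mcidas.L (920 reads) and ccno.L (1256 reads). The ciliary structural gene tekt2 had 39 reads in tekt2.S, just above 1 CPM, and 3 in tekt2.L. Of the other genes in the list, ubp1.L had 362 reads and ca12.L 185, while atp6v1b1.L, with 22 reads, was below 1 CPM.

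A list of members known mostly from broad or general roles held 23.2% of fox reads. Of its 29 rows 17 were above 1 CPM, against 68.2% of all rows ending in .L or .S. The list also holds foxp3, a factor of regulatory T cells, and foxn1, required in the thymus. foxk2, a repressor found in many tissues, had a log2 CPM of 6.87 for foxk2.L (5915 reads) and 5.77 for foxk2.S (2746 reads). foxm1.S, which drives genes of mitosis, stood at 5.93 (3072 reads). foxn3.L, a checkpoint-related repressor, had 5.81 (2834 reads), and foxn2.S, a relative of it, 4.23 (942 reads). Of the foxo genes, which insulin signaling keeps out of the nucleus, foxo4.L (4.22), foxo1.L (3.80) and foxo3.L (3.64) were the highest on the log2 scale. foxj3.S had 3.52, foxp4.S 3.01, foxp1.L 2.13 and foxr1.L 1.52. foxp3 had 3 and 2 reads in its .L and .S rows, and foxn1 had 2 and 33.

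The eye and thyroid members were also near the bottom. foxe3, listed by RefSeq under the older names foxe4 and lens1 as well, had 9 reads for foxe3.L and 20 for foxe3.S. foxe1, known from thyroid development, had 4 reads for foxe1.L and 1 for foxe1.S, and the ovary factor foxl2 had 7 for foxl2.L and 3 for foxl2.S.

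Both homeologs were listed for 36 fox genes, and 9 genes had 1 row. In 24 of the 36 pairs at least 1 homeolog was above 1 CPM. Among these 24 pairs the .L row was higher in 13 and the .S row in 11, against 57.1% with a higher .L row among 5875 such pairs of all genes. The difference, .L minus .S in log2 CPM, had a median size of 0.81 in fox pairs, against 1.27 in all pairs. It was above 1, or 2-fold, in 10 of the 24 fox pairs (41.7%), against 58.4% of all pairs, and above 2 in 4 fox pairs (16.7%), against 32.5%. These are descriptions, since pairs are not replicates, and reads common to both homeologs could have been counted for either or for neither.

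The pairs over 2 apart in log2 CPM were foxo4, foxo1, foxn3 and foxa1. foxo4 had 931 reads in foxo4.L and 0 in foxo4.S, or 310-fold more in .L when set against a floor of 3 reads over the 6 libraries. The lower end of the exact binomial interval of this ratio is 252. foxo1.L had 695 reads, against 28 in foxo1.S, which is 24.8-fold more (17.0 to 37.6, exact binomial). foxn3.L had 2834 reads, against 459 in foxn3.S, a ratio of 6.17 (5.59 to 6.83). Here the names are uncertain too, because RefSeq lists foxn3.S as an older name of foxn3.L and the reverse. In the opposite direction foxa1.L had 27 reads, against 185 in foxa1.S, or 12.7% of the pair (8.56% to 18.0%). Within 2 on the log2 CPM scale, but far apart in reads, was foxq1, with 43 in foxq1.L against 5 in foxq1.S, a ratio of 8.60 (3.41 to 27.8).

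Smaller differences were still outside counting error in several abundant genes. Large totals are estimates, and the intervals leave out the error of recovering them. foxi4.2.L held 29.6% of the reads of its pair (29.2% to 30.0%), whereas foxk2.L held 68.3% (67.3% to 69.3%) and foxa4.L 61.4% (60.2% to 62.7%). foxn2.L had 32.1% (29.7% to 34.7%) and foxi1.L 36.8% (33.8% to 39.9%). Within the foxi subfamily, foxi1 and foxi4.2 had more reads in .S. In the same subfamily foxi4.1.L held 49.1% (46.8% to 51.5%) and foxi2.L 52.7% (47.7% to 57.6%), both with intervals that include equal shares. The neural plate gene foxd4l1.1.L held 51.7% (50.04% to 53.3%), with a lower end only just above equal shares. Of the 24 pairs, the interval lay above equal shares for .L in 12, below in 8 and across in 4, which besides foxi4.1 and foxi2 were foxc2 and foxj1.2.

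**Figure D4:**
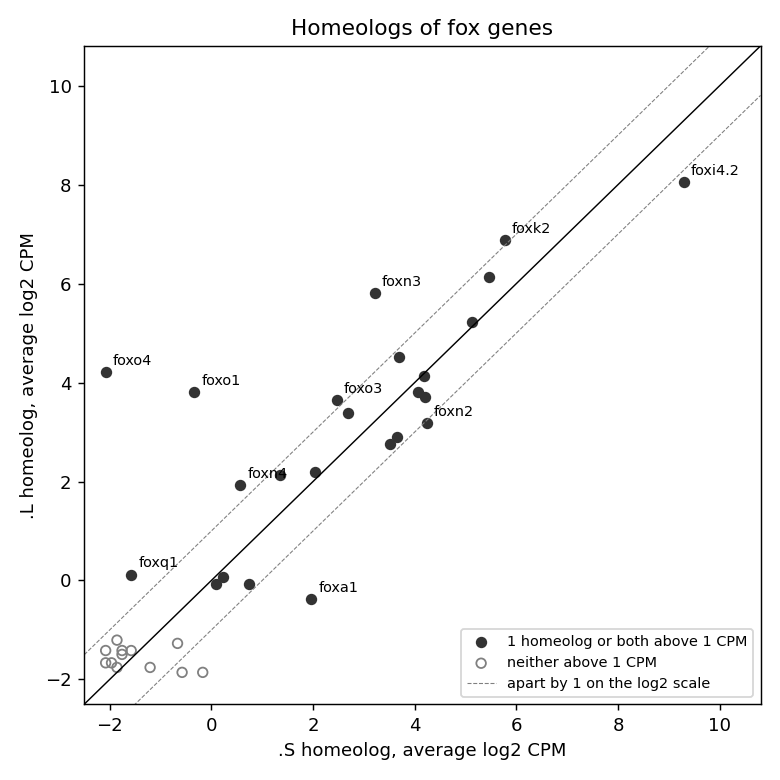
Average log2 CPM over all samples of the .L homeolog (vertical axis) against the .S homeolog (horizontal axis) for 36 fox genes. The solid line marks equal levels and the dashed lines a difference of 1 on the log2 scale, and the 10 named genes lie outside them, beside 2 pairs with neither homeolog above 1 CPM, with foxo4 at 4.22 for .L and at the level of 0 reads for .S.

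The genes with 1 row included foxm1.S, foxh1.L, foxd4l1.2.L, foxh1.2.L, foxp4.S, foxr1.L, foxb2.S and foxa2.L. The levels of these 8 ran from -0.66 to 5.93 in log2 CPM, so single rows occurred among abundant and scarce members alike. foxb2.S, a relative of foxb1, had 26 reads (17.0 to 38.1, exact Poisson), against 841 in foxb1.S.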

How the data were processed

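Poly(A) RNA of 3 stretched and 3 control samples was sequenced, and 1 table was deposited. The paper names STAR and DESeq2, and the processing notes of the submitters name TopHat2, HTSeq, DESeq and edgeR, without versions. The build and annotation of the genome were not stated in the sources. The average log2 CPM was computed by the authors over all samples, with a prior count. The 4 other columns that the authors deposited hold their own comparison of stretched with control explants (fold change, F, p-value, FDR) and were not used, so a count test planned for values per sample was not made and no groups are compared.

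To recover reads, 1 was taken from the ratio of each CPM to the lowest CPM, and the rest multiplied by the product of 6 libraries and a prior count of 2. This step was tested on simulated counts made with the same 6 libraries and prior count. Such a test cannot tell whether the deposited averages were computed with these settings. Large totals are estimates. The summed totals came to 100.3% of 6 mean libraries. This share would be the same for any assumed number of libraries or prior count, so it is no check on either. Intervals are Clopper-Pearson for shares and exact Poisson for reads. The paper states a minimum of reads generated for each sample, which is above the mean of counted reads implied here. The counted reads of each single sample are unknown. The replicates are described as independent, with no clutch named.

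Members and lists were chosen with earlier results of these data known. Genes named were the 20 highest rows, the highest of each subfamily, pairs over 2 apart on the log2 scale and the 3 highest of each list. Others were added after their values were seen. A member counted in the totals is not reported here by name, and the plots by subfamily leave it out. All 81 names matched a RefSeq symbol of Xenopus_laevis_v10.1, used for names and neighbours only. Python 3.11.15, numpy 2.4.6, scipy 1.17.1, pandas 2.3.3 and matplotlib 3.10.9 were used.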

Additional observations from a re-analysis of the deposited data

How the results depend on the processing

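With a limit of -1 on the log2 scale 58 fox rows were above it, with a limit of 1 there were 42, and with the lowest CPM of the table subtracted 45 were above 1 CPM, against 49 as reported. The foxi share of 53.4% became 53.9% with that subtraction. When both homeologs had to be above 1 CPM, 18 pairs were left. Of these, 6 (33.3%) were apart by over 1 on the log2 scale, against 50.1% of such pairs of all genes. Only 1 (5.56%) was apart by over 2, against 22.7%. This filter takes out pairs with a scarce homeolog such as foxo4 and foxo1. With no filter on pairs .L was higher in 21 of 36, against 13 of 24 as reported. Among all 7768 pairs of the table .L was then higher in 4193 and .S in 3259. Of the pairs with 1 homeolog above 1 CPM, 23 had reads in both. Subtracting the lowest CPM takes the same amount from both homeologs, so the sign in these pairs could not change. The subtraction put foxq1 at 3.10 on the log2 scale, against 1.69 as reported, since the prior count shrinks differences between scarce rows. Scaling by coding length was not run, as no sequences of the genes were used here. No paired analysis was possible because the values are averages over all samples, and leaving out replicates could not be done for the same reason. Rows under about 10 reads are limited by depth.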
